A study of Homo sapiens with 4 samples.

Results

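The D arm of transfer RNA and the connecting nucleotides before it were examined nucleotide by nucleotide, in cells with and without the methyltransferase homologue TRMT1L. The members are all nucleotides that the deposited numbering sheet places at canonical positions 8 to 25, the extra positions 17a, 20a and 20b included, in each of the 48 tRNA references. They number 864 of the 3621 numbered nucleotides and cover 20 of the 78 canonical positions. A reference is 1 tRNA sequence to which reads were aligned, named by amino acid, anticodon and gene number. The 48 references fall into 21 amino acid classes when the initiator methionine tRNA (iMet) is kept apart. Position 17 was present in 14 references, 20a in 31 and 20b in 3, all of them leucine tRNAs. No reference had a position 17a, and each other position was present in all 48.

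In the folded tRNA, positions 8 and 9 connect the acceptor stem to the D arm. Positions 10 to 13 pair with 22 to 25 to form the D stem, and the nucleotides between them form the D loop. The arm is named after dihydrouridine, a uridine whose ring double bond has been reduced, which DUS enzymes place at several loop positions (DUS2 acts at position 20 in human cells). The arm also holds the nucleotides that fold the tRNA into its L shape: positions 18 and 19 reach into the T loop, 8 contacts 14, and 15 contacts 48. Known human modifications include methylguanosine at positions 9 and 10, acetylcytidine at 12 of serine and leucine tRNAs (made by NAT10 with THUMPD1), pseudouridine at 13 (PUS7), a ribose-methylated guanosine at 18 and aminocarboxypropyluridine at 20 and 20a (DTWD1 and DTWD2).

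The cells were HCT116, an established human colorectal carcinoma line, either wild type (WT) or TRMT1L knockout (KO), with 2 libraries of each genotype and no added treatment. Transfer RNA was purified by ion exchange and read as native RNA in a nanopore by Nano-tRNAseq, and the measured value was the share of reads in which the base caller reported a mismatch, a deletion or an insertion at a nucleotide. The summed error is the total of these 3 rates, and it reads modification only indirectly, since sequence context moves it too and a lost modification may raise or lower it. The pore senses several neighbouring nucleotides at once, so the error rates of adjacent positions are not independent. Neither separate cultures nor separate knockout clones are named in the labels, and the p-values therefore reflect the variation of these libraries alone, which could be technical. TRMT1L itself was not measured, and read depth is unknown because the sheets hold fractions only. The sheets also give no reference bases and no genome build, so neither sequences nor coordinates are shown.

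Averaged over the 864 nucleotides, the summed error of the libraries was 32.4% and 31.8% for WT and 32.2% and 32.6% for KO. The genotypes overlapped (exact two-sided permutation p = 0.667, where 2 against 2 libraries cannot give less than 0.333). Over all 3621 numbered nucleotides the means were 30.9% in both WT libraries, then 31.7% and 31.8% in KO. The typical spread between libraries was small beside the largest changes described below, with a median SD over the 864 nucleotides of 1.30 percentage points in WT and 1.16 in KO. The median change over these nucleotides was 0.682 points, and the SD of single nucleotides does not measure the uncertainty of that median. The error was higher in KO at 580 of the 864 (67.13%). Outside the 5 tRNAs described below that passed limma's test on the summed error, 777 nucleotides remained. Their means were 32.24% and 31.5% in WT, then 32.31% and 32.73% in KO (exact two-sided permutation p = 0.333). KO was higher there by a small margin, and 2 against 2 libraries cannot resolve such a shift.

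In WT cells the D loop was read with more errors than most of the tRNA. High position medians were not particular to the D loop. In the T loop they were 52.7% at 54, 72.97% at 55, 67.5% at 57 and 71.1% at 58. They were lower at 56 (10.4%), 59 (38.1%) and 60 (25.6%). In the anticodon loop they ran from 40.5% at 35 to 57.7% at 33, apart from 21.7% at 32. The median of the D stem was only slightly below that of the nucleotides outside the arm. The median summed error of the 864 nucleotides was 28.9%, against 23.7% for the other 2757 numbered nucleotides. By role, the median was 24.7% at the connecting positions 8 and 9, 22.04% in the D stem and 36.9% at the loop positions that shape the core (14, 15, 18, 19 and 21). It was 38.7% at the loop sites that carry dihydrouridine or lie beside it (16, 17, 20, 20a and 20b). Of the 20 positions, 12 ranked in the upper part of the 78, between rank 1 and rank 39. That part holds 39 of all 78 positions, and position 9 was at its edge with rank 39.

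Position 20b had the highest median of all 78 positions, 80.4%, but it rests on 3 leucine references. The next in the arm were 21 at 46.98% (rank 12), 20a at 41.8% (rank 15), 18 at 40.99% (rank 18) and 20 at 40.8% (rank 19). The order of 20a, 18 and 20 is not resolved, since the median at 20a was 40.3% in the first WT library and 43.6% in the second, and that at 18 was 42.3% and 38.7%. Position 13, a stem position, followed at 40.02% (rank 22), then 19 at 38.2% (rank 24). Positions 17, 16 and 15 had medians of 32.9%, 32.9% and 32.02%, and 14 had 26.3%. The other stem positions were lower, with 24.6% at 11, 23.8% at 25, 23.3% at 12, 21.6% at 22 and 20.6% at 10. Positions 24 at 18.1% (rank 59) and 23 at 13.03% (rank 71) were the lowest of the arm. The order depends on the median: by the mean over references position 13 ranked 12 in place of 22, ahead of 21, 20a, 18 and 20, and position 11 ranked 30 in place of 43.

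**Figure D1:**
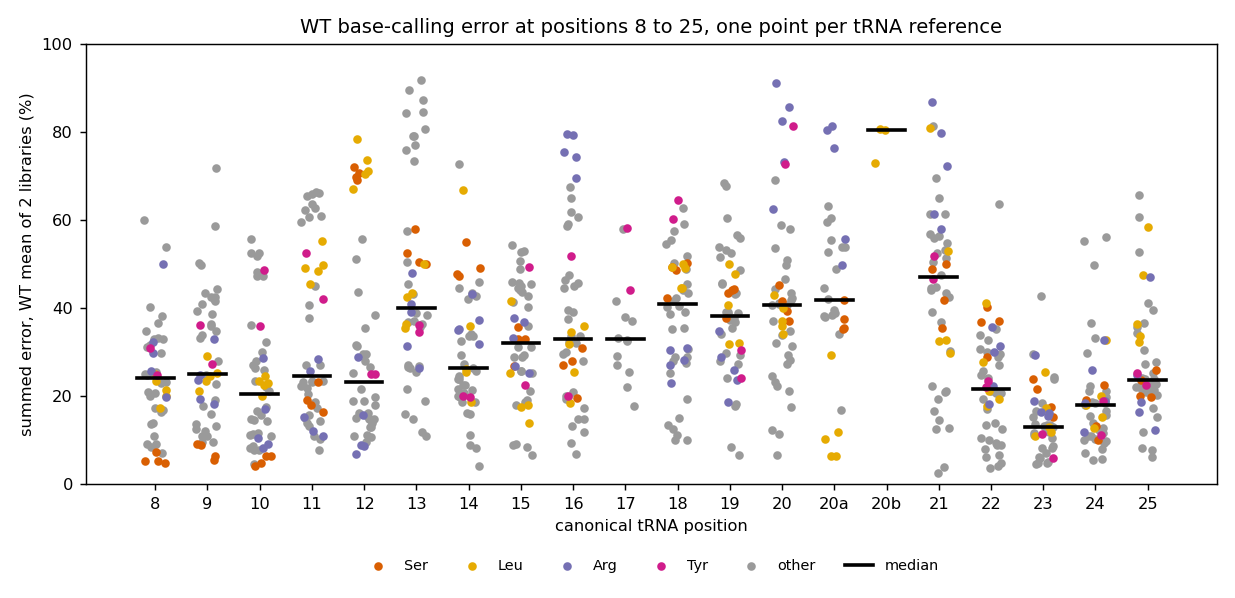
WT summed error in percent (y axis) at each canonical position (x axis), with a point for each reference as the mean of 2 WT libraries and a bar at the median. Serine and leucine stand above all other references at position 12, arginine at position 16, and the spread between references at most positions is wider than the differences between position medians, such as 40.8% at position 20 and 40.02% at position 13.

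A median hides most of the structure, because references differed far more within a position than position medians did. The groups of references described in the next paragraphs were singled out after their values were seen, apart from serine and leucine at 12. That group was set by the acetylcytidine known there, but also with earlier results of these data known. No test is given for any of the groups. At the connecting positions Asp-GTC-2-6 had the highest error. At position 8 it had 56.9% in one WT library and 62.96% in the other, and at position 9 it had 70.9% and 72.9% in WT. At the other end, all 4 serine references were low, at 4.92% to 7.35% at position 8, where the 44 other references had a median of 24.8%. The same 4 had between 4.05% and 6.44% at position 10, the position of a methylguanosine in many tRNAs, against a median of 22.3% for the others.

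Position 12 separated serine and leucine from all other tRNAs. The 9 serine and leucine references ranged from 67.1% (Leu-CAG-1-4) to 78.5% (Leu-TAA-1-1), with a median of 70.8%. The other 39 had a median of 17.9%, and the highest was Asp-GTC-2-6 at 55.7%. No library of any serine or leucine reference fell below 65.4%, and no library of another reference exceeded 57.7%. The median mismatch rate there was 49.5% in the 9 references and 6.94% in the others, although in Ser-AGA-2-5 deletion (35.7%) exceeded mismatch (34.3%). Across the pair, at position 23, the median over all references was the lowest of the arm. The genotype did not separate at position 12 in these tRNAs: KO minus WT ran from -1.49 to 2.34 points, and none of the 9 passed the test.

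Positions 11 and 13 also split by amino acid. At position 13, the pseudouridine position, the 10 references for Glu, Gln, Val and Pro lay between 73.5% and 91.7%, the highest being Glu-CTC-1-1 with 91.1% and 92.3% in the WT libraries. The 38 others had a median of 36.6%, and of them Gly-CCC-2-1 alone reached this range, at 79.2%. Position 13 was the position with the highest WT error of the arm for 5 of the 21 amino acid classes (Gln, Glu, Gly, Pro and Val). At position 11, 10 of the 11 references for Ala, Ile, Lys and Thr lay above all 37 others, whose highest was Leu-CAA-4-1 at 55.2%. The exception was Ile-TAT-3-1 at 20.4%, while Ile-AAT-8-1 had the highest value of position 11, 66.3%.

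On the 3' strand of the stem, valine tRNAs stood out by their deletions. At position 24 the 3 valine references stood above the 45 others, at 49.7% to 56.1% against a highest value of 36.6%. Their median deletion rate was 43.2%, against 4.58% in the others, while their median mismatch rate was 7.65%. Over all references deletions made up a larger share of the summed error than mismatches at 24 (44.7% against 40.4%) and at 25 (42.4% against 36.3%). Insertions took their largest share of the arm at 25, 21.3%. Cys-GCA-3-1 was the lowest reference at each of 22, 23, 24 and 25, from 3.79% at 22 to 6.13% at 25.

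In the loop, arginine references had the highest errors at positions 16, 20, 20a and 21, though not all 5 at each. At position 16, a dihydrouridine position, the WT means of all 5 arginine references (69.7% to 79.6%) lay above those of the 43 others. The highest of the others was Asn-GTT-2-1 at 67.5%. Single libraries overlapped there, since the lowest arginine library had 67.7% and the highest library of the others 71.4%. At position 20 the highest was Arg-TCG-1-1, with 89.9% and 92.4% in the WT libraries, and 3 of the 5 arginine references lay above every other reference. The highest values at 20a (Arg-CCG-2-1, 81.4%) and 21 (Arg-TCG-1-1, 86.9%) were also arginine, but at 21 the lysine class had the highest mean, 75.5%. Tyr-GTA-2-1 was the highest of all 48 at position 18 (64.6% ± 2.02, SD, n = 2) and, at 58.2% ± 1.82 (SD, n = 2), the highest of the 14 with a position 17. Neither value stood clear of the other references. Met-CAT-5-2 had 58.04% at 17. At 18 Glu-TTC-1-1 had 62.8%, and the highest library of a reference other than tyrosine had 63.5%. The lowest reference at 13, 15, 19 and 20 was the initiator iMet-CAT-1-6, at 10.9%, 6.68%, 6.75% and 6.72%, although it had the highest error of all 48 at position 25, 65.6%.

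**Figure D2:**
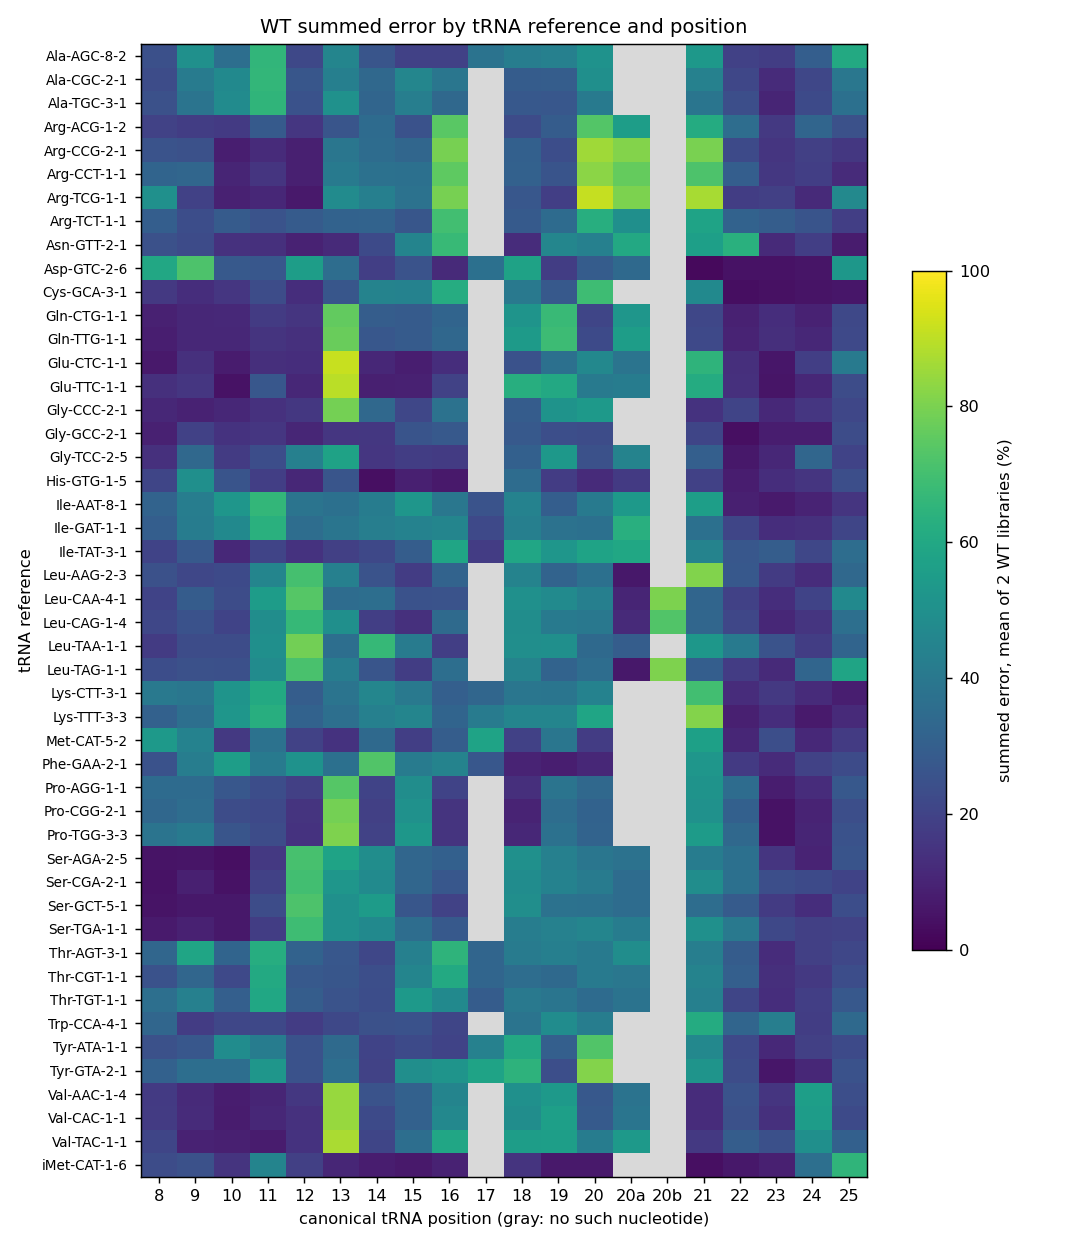
WT summed error in percent (colour) for each reference (rows) and canonical position (columns), as the mean of 2 WT libraries, with gray where a reference has no such nucleotide. The 9 serine and leucine references are bright at position 12, Glu, Gln, Val and Pro at 13 and arginine at 16, 20 and 21, and iMet-CAT-1-6 is dark from 13 to 23.

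Mismatch was the main kind of error through the loop. Its share of the summed error was 77% at 20b, 76.7% at 20a, 71.5% at 19, 66.7% at 20 and 67.2% at both 16 and 21. It was 58.2% at 18, the ribose-methylated position, where deletions made up 35.03%. Deletions were also frequent at 14, with 43.4% of the error.

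Limits of the numbering sheet touch these levels. Leu-AAG-2-3 and Leu-TAA-1-1 have no 20b in the numbering sheet, whereas the 3 other leucine references do. The nucleotide numbered 21 in Leu-AAG-2-3 is the twenty-first in its reference and had 80.9%, close to the nucleotide at the same place in Leu-TAG-1-1, which is numbered 20b and had 80.7%. The next nucleotide had 27.6% in Leu-AAG-2-3, where it is numbered 22, and 29.8% in Leu-TAG-1-1, where it is numbered 21. Levels from 21 on are therefore not compared between leucine references. In the same way Ala-AGC-8-2 has a position 17 and the other alanine references do not.

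Loss of TRMT1L went with lower error at a few nucleotides of the D loop and D stem in 5 tRNAs, and most of the arm did not pass the test. Of the 864 nucleotides, 17 passed limma's test on the summed error at an adjusted p under 0.05, beside 0.608% of all numbered nucleotides. Lower in KO were 13, beside 0.387% of all, and higher were 4, beside 0.221%. All 17 lay in Tyr-GTA-2-1 (6), Tyr-ATA-1-1 (4), Cys-GCA-3-1 (3), Ala-CGC-2-1 (2) and Ala-TGC-3-1 (2). The 13 that fell were at positions 20 (5), 22 (4), 17 (2) and 18 (2). Without adjustment, 93 of the 864 had p under 0.05, or 10.8%, against 9.36% of all. In the 43 other references the change over 777 nucleotides ran from -8.81 points (Ile-GAT-1-1, position 18) to 6.82 points (Val-TAC-1-1, position 12), with a median of 0.706. None passed there by definition, since these references were set apart for having no call. Of the 777, 45 had an unadjusted p under 0.05, or 5.79%, a share that the same selection lowers. The median change was 0.682 over the members and 0.818 over all numbered nucleotides.

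**Figure D3:**
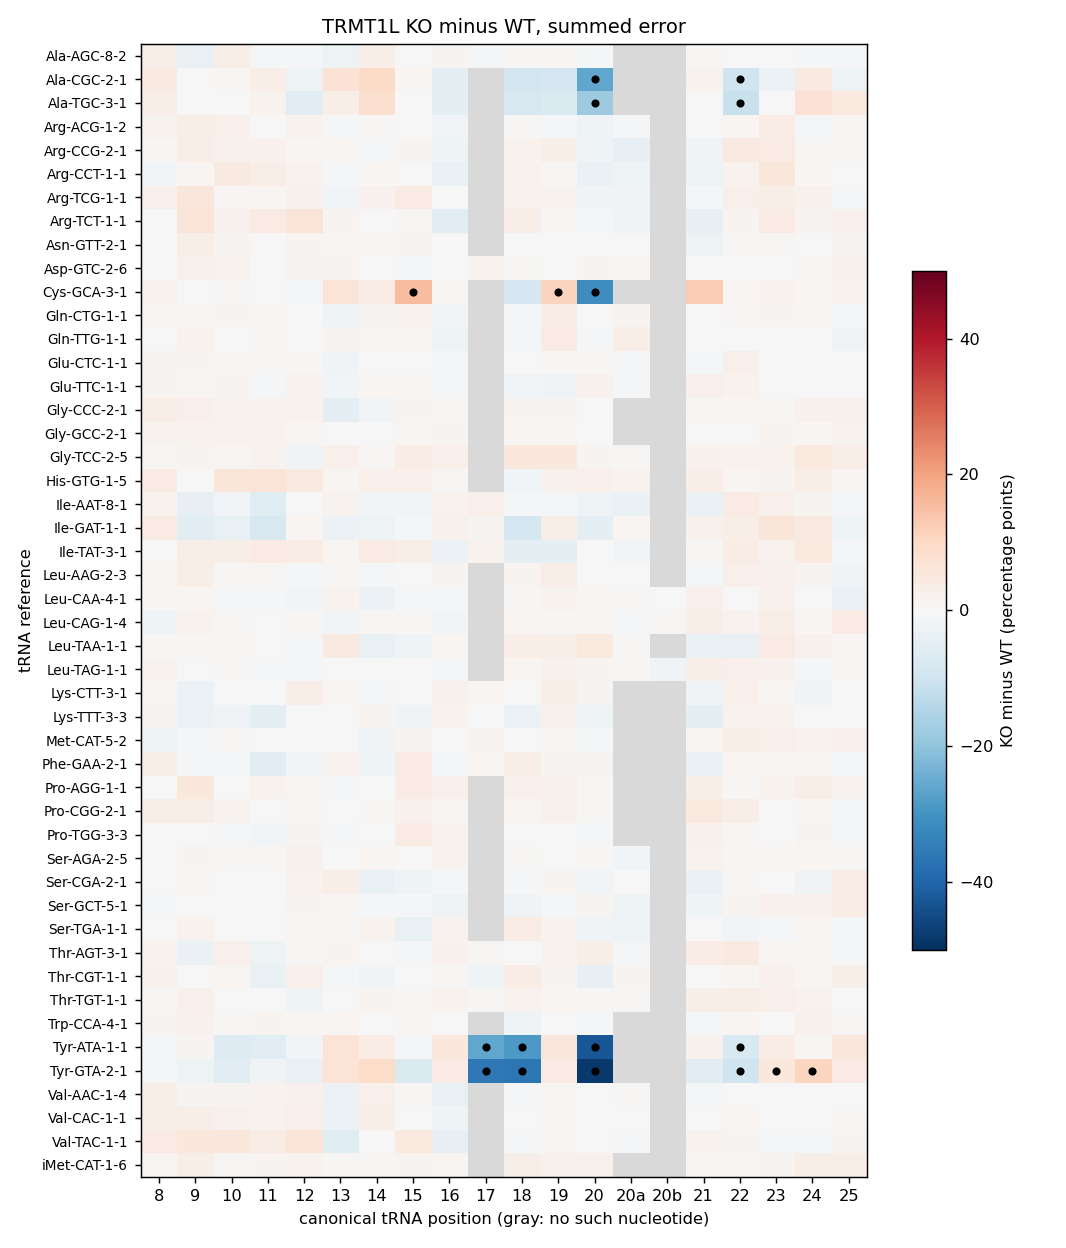
TRMT1L KO minus WT in percentage points of summed error (colour, blue lower in KO and red higher) for each reference (rows) and canonical position (columns), from means of 2 libraries each. Black dots mark the 17 nucleotides past limma's adjusted threshold, all of them in 5 references.

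Position 20 fell in each of the 5 references and was the largest change of the arm in every one. It carries dihydrouridine in many tRNAs and, in some, aminocarboxypropyluridine. In Tyr-GTA-2-1 the summed error was 80.5% and 82.4% in WT and 33.2% and 33.1% in KO, a fall to 33.2% ± 0.0386 (SD, n = 2) from 81.5% ± 1.33 (SD, n = 2). The KO minus WT difference was -48.3 points (limma adjusted p = 7.40e-07). Tyr-ATA-1-1 went from 72.6% and 73.1% to 27.7% and 32.4%, by -42.8 points (limma adjusted p = 5.24e-06). Both tyrosine references were thus among the highest at this position in WT and below the WT median of 40.8% in KO.

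Cys-GCA-3-1 moved in the same direction at position 20, from 67.98% and 70.1% to 38.6% and 37.5%, by -31.0 points (limma adjusted p = 2.24e-05). Ala-CGC-2-1 had 44.3% and 55.2% in WT and 25.2% and 22.01% in KO, by -26.1 points (limma adjusted p = 0.00290). Ala-TGC-3-1 had 35.4% and 45.98% in WT and 22.6% and 22.3% in KO, by -18.3 points (limma adjusted p = 0.0175). The WT libraries of these alanine references had SDs of 7.75 and 7.45 points, the second library being higher in both, and the KO libraries lay below either. The changes at position 20 in the other 43 references ran from -5.00 to 5.03 points with a median of -0.0377. Arg-TCG-1-1, the highest there, had 89.6% and 89.4% in KO, against the WT values of 89.9% and 92.4%.

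The nearby positions 17 and 18 fell in both tyrosine references. Position 17 is a dihydrouridine site, and 18 is the guanosine that contacts the T loop. In Tyr-GTA-2-1 position 17 had 56.9% and 59.4% in WT and 21.4% and 23.1% in KO (-35.9 points, limma adjusted p = 1.12e-05). Position 18 of the same tRNA had 63.2% and 66.1%, then 26.6% and 30.1% (-36.2 points, limma adjusted p = 1.53e-05). The libraries of the genotypes were far apart at both. In Tyr-ATA-1-1 position 17 had 39.96% and 48.2% in WT and 17.7% and 18.6% in KO (-25.9 points, limma adjusted p = 4.43e-04). Position 18 there had 59.05% and 61.5%, then 29.7% and 33.1% (-28.9 points, limma adjusted p = 8.64e-05). Cys-GCA-3-1, Ala-CGC-2-1 and Ala-TGC-3-1, which have no position 17, differed at 18 by -8.52, -9.21 and -7.85 points, with KO libraries below WT libraries in each, but did not pass (limma adjusted p from 0.0811 to 0.185).

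At position 22, which pairs with 13 across the stem, the error fell in both tyrosine references and in the same alanine references. The values in Tyr-GTA-2-1 were 24.1% and 22.7% in WT and 12.6% and 14.3% in KO (-9.95 points, limma adjusted p = 0.0124). Ala-TGC-3-1 had 23.4% and 24.9%, then 11.9% and 14.5% (-10.9 points, limma adjusted p = 0.00997). Ala-CGC-2-1 had 19.6% and 22.8%, then 11.4% and 10.9% (-10.1 points, limma adjusted p = 0.0103), but with insertions left out of the sum the change of -5.78 points missed the threshold (limma adjusted p = 0.0817). In Tyr-ATA-1-1, nearest the threshold, 21.8% and 22.2% became 14.9% and 13.5% (-7.76 points, limma adjusted p = 0.0481). That call was lost without transformation (limma adjusted p = 0.0568) and without the trend (limma adjusted p = 0.0790). It was also lost with the replicate block (limma adjusted p = 0.107) and without insertions (limma adjusted p = 0.0817). Without TRMT1L KO replicate 2 the change was -7.025 points and did not pass. Cys-GCA-3-1 was already at 4.07% and 3.51% in WT and had 4.75% and 4.48% in KO, a difference of 0.819 points, not past the test (limma adjusted p = 0.752). On the other strand, position 13 had a higher mean in KO in all 5 references, by 2.98 to 7.04 points, and none passed in summed error (limma adjusted p from 0.298 to 0.756).

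Rises in summed error passed the test at 4 nucleotides. In Cys-GCA-3-1 position 15, which contacts the variable region, went from 43.7% and 44.7% to 59.3% and 59.6% (15.2 points, limma adjusted p = 0.00755). Position 19 of the same tRNA went from 27.7% and 28.1% to 40.3% and 38.2% (11.3 points, limma adjusted p = 0.0417). In Tyr-GTA-2-1 the stem positions 24 and 23 rose. Position 24 had 11.8% and 10.5% in WT and 20.1% and 23.4% in KO (10.6 points, limma adjusted p = 0.00997). Position 23 had 6.31% and 5.76%, then 10.8% and 12.1% (5.40 points, limma adjusted p = 0.0419). The rises at 19 and 23 passed narrowly. With each library's median deviation subtracted, their limma adjusted p was 0.0630 and 0.115, and position 19 also missed the threshold without TRMT1L KO replicate 1 (limma adjusted p = 0.143). The rise at 24 rests in part on insertions, and without them its limma adjusted p was 0.117.

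**Figure D4:**
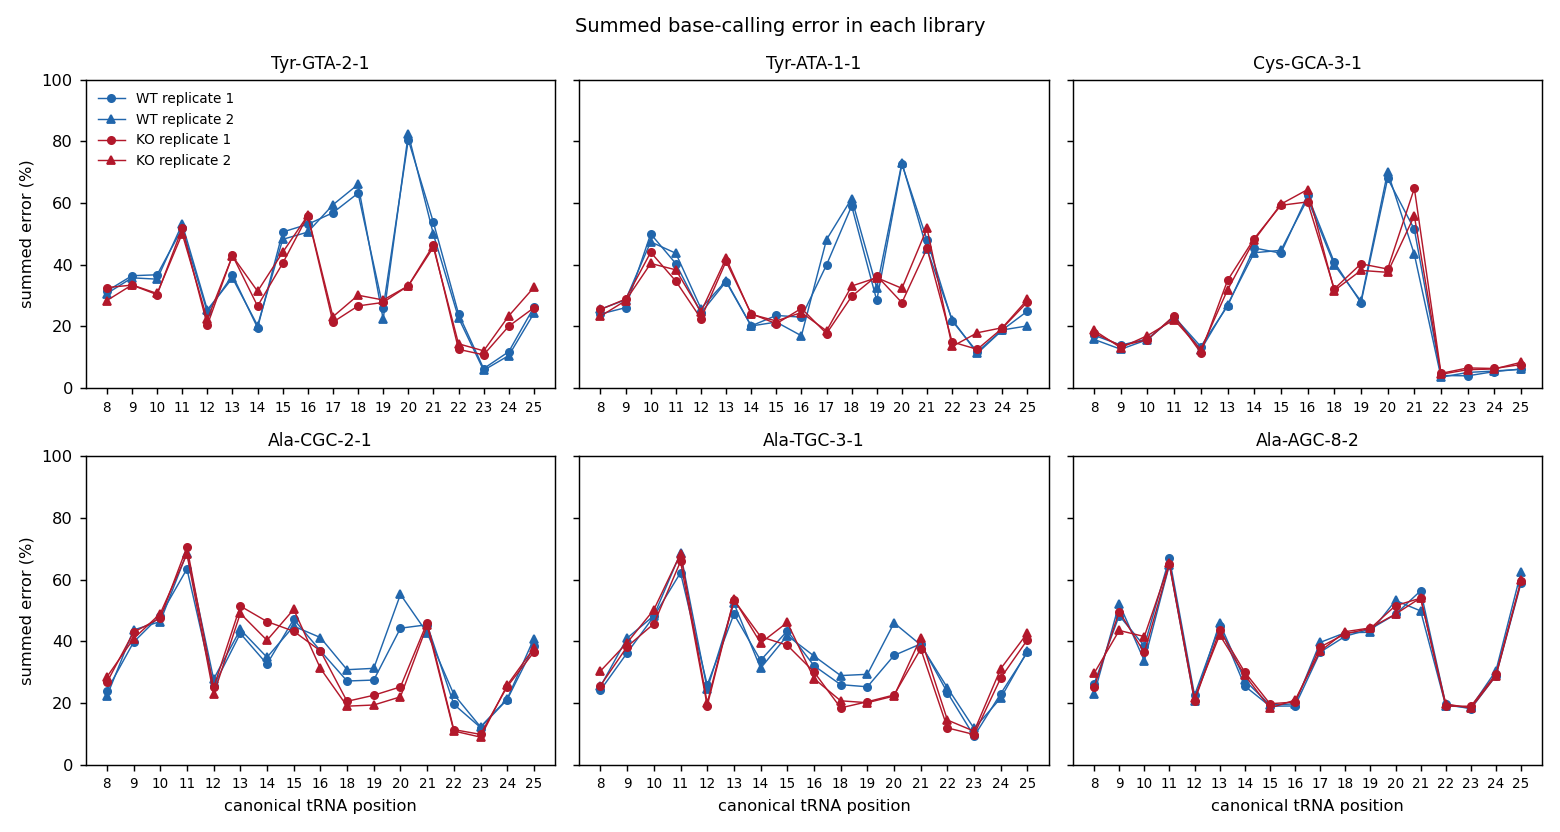
Summed error in percent (y axis) along canonical positions 8 to 25 (x axis) in each library of 6 tRNA references, WT in blue and TRMT1L KO in red, replicate 1 as circles and replicate 2 as triangles. The genotypes part at positions 17, 18 and 20 in the tyrosine references and at 20 in cysteine and in Ala-CGC-2-1 and Ala-TGC-3-1, while in Ala-AGC-8-2 the libraries overlap at 20.

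Mismatch was the largest of the 3 components at each of the 13 nucleotides whose fall in summed error passed the test. Its part was smallest at 17 of Tyr-ATA-1-1, where mismatch changed by -10.7, deletion by -7.37 and insertion by -7.87 points. On mismatch alone 16 of the 864 nucleotides passed, beside 0.552% of all numbered nucleotides, 12 lower (beside 0.331%) and 4 higher (beside 0.221%). At position 20 of Tyr-GTA-2-1 mismatch went from 63.5% and 67.1% to 19.4% and 20.8%, by -45.2 points (limma adjusted p = 1.79e-07). In the same place deletion went from 15.1% and 13.6% to 9.33% and 8.59%, by -5.38 points (limma adjusted p = 0.0165). Position 20 passed in both kinds in all 5 references, with mismatch changes of -45.2, -38.9, -20.2, -17.7 and -12.0 points and deletion changes between -11.3 and -5.38 points. The deletion call at 20 was lost in Tyr-GTA-2-1 without WT replicate 1 or TRMT1L KO replicate 2, and in Tyr-ATA-1-1 without TRMT1L KO replicate 1, and the mismatch call of Ala-TGC-3-1 without WT replicate 2. At 22 mismatch passed in Tyr-GTA-2-1 (-8.45 points) and Ala-TGC-3-1 (-7.94 points), and deletion in no reference. A mismatch fall at position 16 of Ala-CGC-2-1 (24.6% and 26% to 17.8% and 16.3%, limma adjusted p = 0.0447) was not past the test in summed error. A mismatch rise at the stem position 13 of Tyr-GTA-2-1 (16.2% and 17.3% to 24.6% in both KO libraries, 7.85 points, limma adjusted p = 0.0479) passed narrowly, as did that fall at 16, and neither held when WT replicate 1 or WT replicate 2 was left out.

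At position 19 of Cys-GCA-3-1 and Tyr-ATA-1-1 and at 21 of Cys-GCA-3-1, deletion fell while mismatch rose, both past the test. Position 19, the other guanosine of the loop that contacts the T loop, had fewer deletions in KO in all 5 references, by -4.80 to -6.55 points (limma adjusted p from 6.33e-04 to 0.00291), and these calls remained whichever library was left out. In Cys-GCA-3-1 deletion there went from 12.8% and 11.7% to 5.93% and 5.67%. Mismatch at the same nucleotide rose from 13.97% and 15.1% to 32.96% and 31.6% (17.8 points, limma adjusted p = 1.03e-04). In Tyr-ATA-1-1 deletion at 19 went from 10.04% and 11.04% to 4.79% and 4.80%, while mismatch rose from 17.2% and 19.1% to 28.9% and 28.2% (10.4 points, limma adjusted p = 0.0102). The summed changes at 19 of Tyr-ATA-1-1 and Tyr-GTA-2-1 were 5.67 and 4.02 points and did not pass. Nor did the mismatch change at 19 of Tyr-GTA-2-1. The alanine references did not show this opposition at 19, where mismatch differed by -1.87 points in Ala-CGC-2-1 and -2.17 points in Ala-TGC-3-1 and the sum by -8.41 and -7.03 points, none of them past the test. At 21 of Cys-GCA-3-1 mismatch rose from 31.7% and 26.5% to 50.3% and 42.9% (17.5 points, limma adjusted p = 0.00822) and deletion fell from 17.8% and 15.2% to 11.5% and 10.8% (limma adjusted p = 0.0445). The summed change at 21 was 12.9 points, the largest rise of any reference at that position, and did not pass (limma adjusted p = 0.226). The mismatch rise at 19 of Tyr-ATA-1-1 did not pass without WT replicate 1, nor that at 21 of Cys-GCA-3-1 without WT replicate 2, whereas that at 19 of Cys-GCA-3-1 passed whichever library was left out. The deletion call at 21 was lost without WT replicate 1 and without either KO library.

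On deletions alone 24 of the 864 passed, beside 1.19% of all numbered nucleotides, with 16 lower (beside 0.608%) and 8 higher (beside 0.580%). The 16 that fell lay at 16, 17, 18, 19, 20 and 21, all in the loop, and in the same 5 references. Of the 8 that rose, 7 were in the stem and 1 at position 15 of Cys-GCA-3-1, where deletion went from 10.8% and 11.5% to 20.0% and 17.2% (limma adjusted p = 0.00361). Those in the stem included positions 24 and 25 of Ala-TGC-3-1 (6.77 and 6.85 points), position 13 of Tyr-ATA-1-1 (7.73 points) and positions 23 and 25 of Tyr-GTA-2-1 (2.22 and 3.49 points). These 5 depended on single libraries: the call at 25 of Ala-TGC-3-1 was lost whichever of the 4 libraries was left out, and each other call was lost for 3 of the 4. The call at 15 of Cys-GCA-3-1 was lost without TRMT1L KO replicate 1. The remaining pair were the only calls of any kind in the arm outside the 5 references. They were position 12 of Ile-GAT-1-1, with 9.52% and 8.86% in WT and 14.8% and 16.9% in KO (limma adjusted p = 0.00361), and position 11 of Ile-TAT-3-1, with 4.005% and 3.31%, then 6.46% and 6.39% (limma adjusted p = 0.0423). The first passed whichever library was left out, and the second was lost whichever was left out. At position 12 of Ile-GAT-1-1 the summed error was 34.01% and 37.1% in WT and 36.2% and 36.9% in KO and did not pass (limma adjusted p = 0.949).

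On insertions alone 2 nucleotides passed, beside 0.0829% of all, both higher in KO (beside 0.0552%) and both in Tyr-GTA-2-1, and 0 were lower (beside 0.0276%). Position 24 had 0.248% and 0.443% in WT and 4.26% and 3.28% in KO (limma adjusted p = 0.00813), and position 19 had 0.637% and 0.770%, then 3.36% and 2.91% (limma adjusted p = 0.0396). Both calls were lost when either KO library was left out. The insertion rate at 17 of Tyr-ATA-1-1 was 11.5% and 14.6% in WT and 5.54% and 4.82% in KO, a larger difference (-7.87 points) that just missed the threshold (limma adjusted p = 0.0501).

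**Figure D5:**
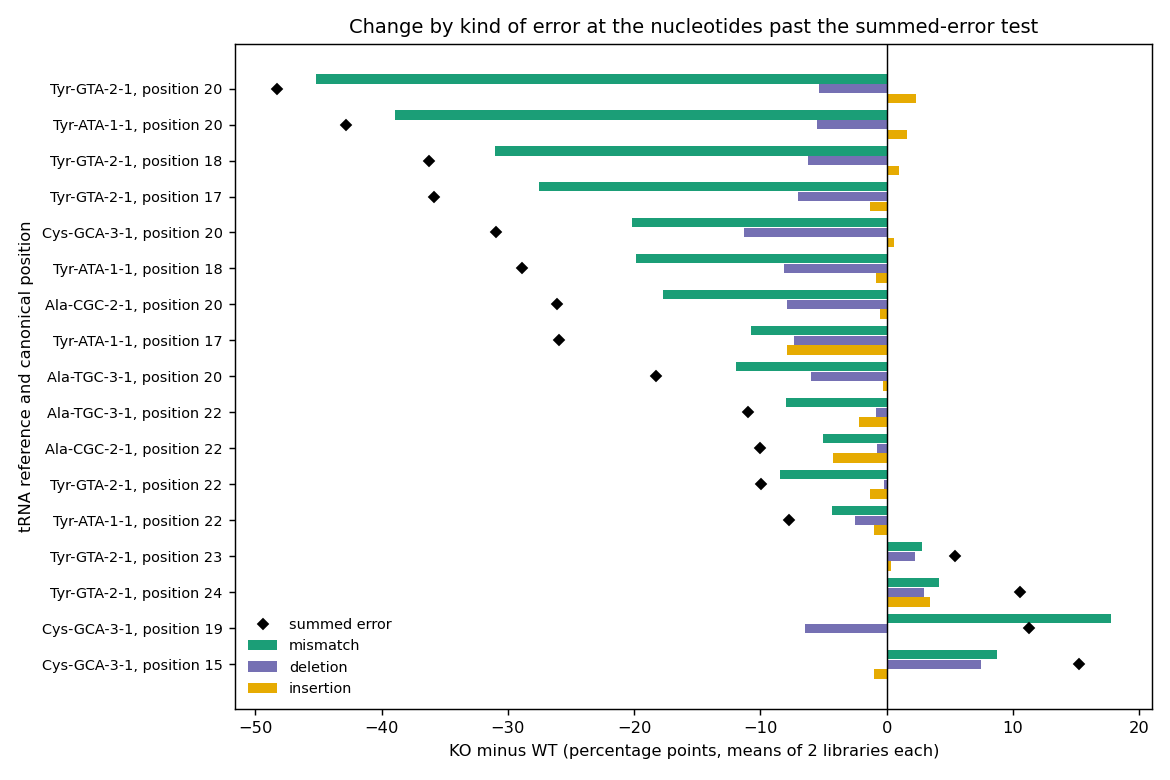
KO minus WT in percentage points (x axis) for mismatch, deletion and insertion (bars) and for their sum (diamonds) at the 17 nucleotides past the summed-error test (y axis), from means of 2 libraries each. Mismatch is the longest bar at position 20 in all 5 references, and at position 19 of Cys-GCA-3-1 mismatch (17.8 points) and deletion (-6.45 points) point in opposite directions.

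Positions 8, 9, 10 and 14 had no nucleotide past limma's test in any kind of error, and 22 of their 192 (11.5%) had an unadjusted p under 0.05 in summed error, near the 9.36% of all numbered nucleotides. Positions 20a and 20b, which none of the 5 references has, had no call either, and 0 of their 34 had an unadjusted p under 0.05 in summed error. At 8 and 9 the median change was 1.06 and 1.24 points. The largest changes there were 4.44 points in Ala-CGC-2-1 at 8 and 6.51 points in Arg-TCT-1-1 at 9. At 14, Ala-CGC-2-1 had 32.6% and 34.8% in WT and 46.4% and 40.4% in KO, and Ala-TGC-3-1 had 33.8% and 31.3%, then 41.5% and 39.5%. The libraries did not overlap in either, but neither difference, 9.66 and 7.92 points, was past the test (limma adjusted p = 0.225 and 0.250). At 20a the change ran from -4.14 to 3.13 points over 31 references, and at 20b from -1.88 to 0.743 points over 3.

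Alanine tRNAs differed among themselves. Ala-AGC-8-2 had no call in the arm, and at position 20 it had 48.8% and 53.3% in WT and 51.6% and 48.8% in KO. Its change was compared, at the same canonical number, with that of each other alanine reference within libraries, as part of 3611 tests over 48 pairs of references for 1 amino acid, of which 864 were in the arm. At position 20, Ala-CGC-2-1 fell by 25.3 points more than Ala-AGC-8-2 changed (limma adjusted p = 0.0201), and it was the sole comparison to pass, beside 0.0277% of all 3611. Against Ala-TGC-3-1 the difference of 17.5 points missed the threshold (limma adjusted p = 0.145), nor did the differences at 22 of 10.0 and 10.9 points (limma adjusted p = 0.207 and 0.195). The comparison of Ala-AGC-8-2 with Ala-CGC-2-1 at 20 did not pass without transformation (limma adjusted p = 0.207), nor without WT replicate 2 (22.1 points). Without adjustment 46 of the 864 had p under 0.05, or 5.32%, against 5.51% of all 3611. Ala-CGC-2-1 and Ala-TGC-3-1 did not pass against each other at 20, where they differed by -7.85 points (limma adjusted p = 0.596).

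The tyrosine references were compared in the same way. At 17, 18 and 20 the decrease in Tyr-GTA-2-1 was larger by 9.94, 7.40 and 5.46 points, and no difference passed (limma adjusted p = 0.580, 0.580 and 0.752). At 24, where Tyr-GTA-2-1 rose by 10.6 points, Tyr-ATA-1-1 changed by 0.649 points, and the difference between them, -9.92 points, was not past the test either (limma adjusted p = 0.207). Closely similar references can share reads, and how the authors assigned such reads is not given in the sources used here, so values of references for 1 amino acid may not be independent.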

How the data were processed

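The deposited sheets held mismatch, deletion and insertion rates, each as a fraction of reads (per the file headers), for 4 libraries and 48 tRNA references, with a sheet of canonical numbers. The authors worked with bedtools, BWA and SAMtools, as listed without versions in the submitters' processing notes. The sources used here give no base caller, read filter or genome build. Depth is unknown, so no value was weighted or given a counting interval.

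The 3 rates were summed per library and nucleotide. Arcsine square roots were compared in R 4.3.3 by limma 3.58.1 (lmFit, then eBayes with trend and robust settings), KO against WT, with Benjamini-Hochberg adjustment over all 3621 numbered nucleotides and a threshold of 0.05, and each kind of error was tested likewise. Changes of 2 references for 1 amino acid were compared by limma on within-library differences, adjusted over 3611 tests. Tables and figures used Python 3.11.15, pandas 2.3.3, numpy 2.4.6, scipy 1.17.1 and matplotlib 3.10.9. The fit was tested on simulated data, drawn independently for each nucleotide and library with the spread that the same fit gave. Deviations shared by neighbouring nucleotides or by a whole library were absent from them, so the rates below may not hold for the measured libraries. With no shift put in, 3 mismatch and 3 insertion nucleotides of 3621 passed, and 0 in summed error or deletion. When 200 nucleotides were shifted, false calls numbered 7 in summed error, 15 in mismatch, 6 in deletion and 20 in insertion. Summed shifts of 5 points were recovered at 23.9% of 67 nucleotides, and those of 10 points at 91%. On the measured libraries the insertion test gave 3 calls among all 3621.

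Nucleotides were named where they passed the summed-error test, were among the 10 largest calls in each direction for a single kind, or were the highest, lowest or most changed of their position. Tyr, Cys and Ala were also named at 17, 18, 19, 20 and 22, as were the largest differences between references. Members, lists and rules were chosen with earlier results of these data known, and groups of references other than serine and leucine at 12 were picked after seeing their values. Alternatives were other scales, no trend, centring, a replicate block, filters on low error and on tRNA ends, omitted insertions and omitted libraries. Replicate numbers are shared by the genotypes, but nothing in the labels says that they pair the libraries.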

Additional observations from a re-analysis of the deposited data

How the results depend on the processing

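Falls in summed error numbered 13 in the main analysis and within 1.5 times of that under every alternative run, and all summed-error calls at 17, 18 and 20 passed under each. The count of all summed-error calls (17) was 19 to 31 with a library left out, and rises (4) were 4 to 16 then, 2 with libraries centred on their medians, 2 without insertions and 2 with the replicate block. With the replicate block 14 of the 17 summed-error calls remained (lost: Cys-GCA-3-1 at 19, Tyr-ATA-1-1 at 22 and Tyr-GTA-2-1 at 23), mismatch rises became 7 and both insertion calls were lost (0 in all, 0 higher). Deviations of same-numbered libraries correlated at -0.251 (summed), -0.245 (mismatch), -0.130 (deletion) and -0.119 (insertion) over 3621 nucleotides, so the numbers are not taken to pair the libraries. A crossed block, added after seeing the data, gave 30 summed-error calls (11 higher), 30 mismatch calls (13 higher), 12 deletion calls (10 lower, 2 higher) and 8 insertion calls (3 lower, 5 higher).

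With a library left out, mismatch calls (16) numbered 11 to 28 and mismatch rises (4) 2 to 14, and deletion rises (8) 4 to 10. Without WT replicate 2 the mismatch falls at 20 and 22 of Ala-TGC-3-1 and the rise at 21 of Cys-GCA-3-1 no longer passed. Deletion rises were 5 without transformation, 5 without the trend, 4 after centring and 13 without tRNA ends. Insertion calls (2) were 1 (1 higher) without transformation, 4 after centring (2 lower) and 0 to 4 with a library left out (lower 0 to 1, higher 0 to 3). Insertion falls (0) were 1 each on log odds, without the trend, without low errors and without tRNA ends. The between-reference call (1) became 0 without transformation, 2 with the replicate block and 0 to 6 with a library left out. The uncalled change at 20b of Leu-CAG-1-4 turned to -0.524 after centring and -0.158 without insertions, and ran from -2.06 to 3.54 with a library left out; that of Leu-TAG-1-1 ran from -3.95 to 0.191. Of 1161 recomputed values of single changes, 90 no longer passed and 18 newly passed. The cause of these shifts was not tested. Of the 20 position medians, 12 lay in the upper part of the 78, and 10 to 13 under the alternative rankings, while 120 of 220 recomputed medians and ranks of single positions moved by more than the spread between the WT libraries. With 2 libraries a genotype and unknown depth, small changes at single nucleotides are not resolved.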

Other observations

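Several amino acids with 1 reference each had the highest WT error of all references at a stem or loop position, and none of the values given here passed the KO test. Phe-GAA-2-1 was highest at 14, where WT had 70.3% and 75.2% and KO 70.9% and 70.2%, and it was also the highest of all references at 10, with 58.7% and 52.9%, then 52.7% and 57.1%. Asn-GTT-2-1 was the highest of all references at 22, where mismatch (31.1%) and deletion (31.8%) were about equal, with 62.9% and 64.2% in WT and 65.2% and 62.9% in KO. Trp-CCA-4-1 was the highest at 23, with 42.2% and 43.2% in WT and 42.3% and 43.3% in KO, although its own highest position was 21, at 62.8% and 60.0%. Trp-CCA-4-1 had 59.9% and 60.97% at 21 in KO, and the genotypes overlapped in each of these nucleotides.

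The make-up of the error differed between references at 1 position. At position 18 of His-GTG-1-5 the WT deletion rate was 27.7% and the mismatch rate 7.04%, whereas at 18 of Asp-GTC-2-6 they were 6.26% and 48.6%. At 17 of Met-CAT-5-2 deletion was 32.8% and mismatch 24.04%, against 10.7% and 44.7% in Tyr-GTA-2-1, which had nearly the same sum. At 21 of Lys-TTT-3-3, the nucleotide with the highest WT error of that reference, mismatch was 62.3% and deletion 13.3%.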
